A study of Mus musculus with 70 samples.

Results

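The nuclear genes of the oxidative phosphorylation system were followed across pituitary RNA-seq libraries of hypothyroid and hyperthyroid mice. The genes were chosen by name alone: symbols beginning with Nduf and a subunit letter, Sdh, Uqcr, Cox4 to Cox8 or Atp5 in the deposited table. Of 85 genes that matched, 77 had a mean above 1 CPM (reads scaled to a common library total) over all 18 libraries and were taken as members, out of 14158 genes tested. The 77 comprise 35 genes of complex I, 4 of complex II, 8 of complex III, 12 of 19 matched genes of complex IV, 14 of 15 of complex V and 4 others. The others are Ndufa4l2, an isoform of Ndufa4, and 3 genes that carry a matching name without encoding a subunit: Cox4nb, a component of the endoplasmic reticulum membrane protein complex, the ATP synthase factor B gene Atp5s, and Atp5sl.

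The libraries came from whole pituitaries of adult male C57BL/6J mice, and each was made from RNA of 3 pooled glands. There were 4 groups, all given methimazole (MMI, an inhibitor of thyroid hormone synthesis) with perchlorate in the drinking water for several weeks. The hypothyroid groups received only this, with 4 wild-type and 5 Thrb-KO libraries. The hyperthyroid groups also received triiodothyronine (T3) in the final week, again with 4 wild-type and 5 Thrb-KO libraries. The labels give the genotype as Thrb-KO, and Thrb encodes the thyroid hormone receptor TRβ. Thyroid hormone has another receptor gene, Thra, which the labels do not list as altered. No untreated group enters the RNA comparisons, so a T3 difference below is that between both extremes of hormone supply.

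Oxidative phosphorylation takes place in the inner mitochondrial membrane. Complexes I and II pass electrons from NADH and succinate to ubiquinone, complexes III and IV carry them through cytochrome c to oxygen, and complex V uses the resulting proton gradient to make ATP. Thyroid hormone is known for raising oxygen use and the expression of respiratory chain genes in liver, heart, muscle and brown fat. In the pituitary its best known effects are repression of the subunit genes of thyrotropin and induction of growth hormone.

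Library totals ran from 21453548 to 55273749 reads, and 3 reads corresponded to 0.0543 to 0.14 CPM. The hormone genes behaved as pituitary tissue under these treatments: in wild-type libraries Tshb, the thyrotropin beta subunit, changed by -4.95 and Gh, growth hormone, by 1.03 on the log2(CPM + 1) scale. Reads over the whole Thrb transcript were not lower in libraries labelled Thrb-KO. In the hypothyroid groups they stood at 239 to 297 CPM in wild-type and 239 to 295 CPM in libraries labelled Thrb-KO. In the hyperthyroid groups they stood at 72.4 to 124 CPM in wild-type and 228 to 301 CPM in libraries labelled Thrb-KO. A count over a whole transcript cannot test a partial deletion, and the genotype therefore rests on the labels in every comparison below. The library labelled hyperthyroid wild type, replicate 3, and to a lesser degree hypothyroid wild type, replicate 4, stood apart from their groups, in ways given below before the comparisons.

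A total of 75 of 77 member genes stood above 1 CPM in every library. Together they took 0.202 to 0.35% of the reads in 17 libraries and 0.509% in hyperthyroid wild type, replicate 3. Transcript length here and below is the median over the annotated protein-coding transcripts of a gene. It may differ from that of the transcript counted. Divided by transcript length, the median level was 26.0 CPM per kb for complex I, 30.6 for complex II, 32.0 for complex III, 47.0 for complex IV and 44.97 for complex V. The highest levels per kb were those of Cox8a, a small subunit of cytochrome c oxidase, at 148 CPM per kb, and of Atp5a1 and Atp5b, the alpha and beta subunits of the catalytic head of ATP synthase, each at 129 CPM per kb. Sdha, the flavoprotein of succinate dehydrogenase, was the highest of complex II at 61.2 CPM per kb. Many subunit genes have processed pseudogene copies, and how reads shared between copies were counted is not given in the sources used here, so low levels such as those of Atp5l at 7.32 and Cox7c at 6.81 CPM per kb are uncertain.

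Where a subunit has tissue isoforms, the pituitary used the general form. Cox4i1 averaged 41.2 CPM against 0.615 CPM for Cox4i2, the form known from lung. Cox6a1 averaged 44.6 CPM and its heart and muscle counterpart Cox6a2 0.0785 CPM. Cox7a2 averaged 28.0 CPM, against 0.388 CPM for the muscle form Cox7a1, and the related Cox7a2l, a factor that joins complexes III and IV, averaged 40.3 CPM. Cox8a averaged 80.7 CPM, while the muscle form Cox8b was at 0.136 CPM and Cox8c at 0.0049 CPM. Cox6b1 at 28.7 CPM and Cox7b at 23.3 CPM stood above the testis forms Cox6b2 at 0.841 CPM and Cox7b2 at 0.0656 CPM. Ndufa4, now counted with complex IV, averaged 40.5 CPM and its isoform Ndufa4l2 only 1.25 CPM. Of the 3 genes for the c ring of ATP synthase, whose mature proteins are alike, Atp5g3 averaged 30.3 CPM, Atp5g1 2.46 CPM and Atp5g2 0.342 CPM. These transcripts differ in length, and per kb the order was the same: 60.7 against 0.842 CPM per kb for Cox4i1 and Cox4i2, 78.1 against 0.119 for Cox6a1 and Cox6a2, 37.1 against 1.07 for Cox7a2 and Cox7a1, and 42.2, 3.57 and 0.528 for Atp5g3, Atp5g1 and Atp5g2. The threshold on the mean fell between Cox6b2 at 0.841 CPM, just outside, and Ndufa4l2 at 1.25 CPM, just inside.

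Member levels varied between libraries of the same group. Each gene was expressed as its deviation from the mean over the libraries on the log2(CPM + 1) scale, and the median over the 77 members was taken for each library. In hypothyroid wild-type libraries this median was 0.02, -0.15, 0.19 and 0.47. In hyperthyroid wild-type libraries it was -0.26, -0.34, 1.03 and 0.02. The libraries labelled Thrb-KO were closer together, between -0.18 and 0.01 in the hypothyroid group and between -0.29 and -0.02 in the hyperthyroid group. The SD of these medians within groups, pooled over the 4 groups, was 0.33.

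**Figure D1:**
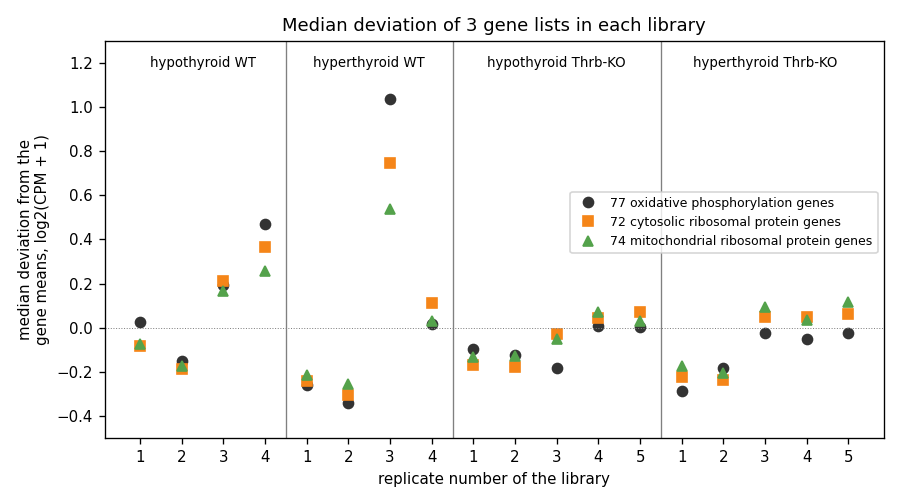
Median deviation of the 77 member genes from their mean over all libraries (vertical axis, log2 scale) for each RNA-seq library (horizontal axis, by group), beside the same for cytosolic and mitochondrial ribosomal protein genes. Hyperthyroid wild type, replicate 3, stands at 1.03 for the members and above every other library, and hypothyroid wild type, replicate 4, follows at 0.47.

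Hyperthyroid wild type, replicate 3, held the highest value of its group for 69 of 77 members, and the highest of all 18 libraries for 60. Over the mean of the other 3 libraries of its group the median ratio was 2.48, from 0.866 for Ndufs1 to 10.7 for Ndufa3, an accessory subunit of complex I chosen after its values were seen, which stood at 8.95, 7.69, 138 and 22.1 CPM in the 4 libraries of that group. The ratio moved with transcript length. It had a median of 4.03 over the 27 members under 600 bases, 2.29 over the 33 members of 600 to 1300 bases and 1.22 over the 17 longer ones. Short transcripts of all kinds were also higher in this library: the 290 tested genes under 600 bases deviated by a median of 0.58 and the 1440 genes over 5000 bases by -0.55. Cytosolic ribosomal protein genes deviated by a median of 0.75 and mitochondrial ribosomal protein genes by 0.54. The same library gave 21.2% of its reads to Gh and Prl (prolactin), against 10.2 to 13.9% in the other hyperthyroid wild-type libraries. Member transcripts are short, with a median of 711 bases against 2406.5 for tested genes with a known length, and 35.06% of members but 2.16% of those genes were under 600 bases. In hypothyroid wild type, replicate 4, which held the highest value of its group for 51 members, genes under 600 bases deviated by 0.22 and those over 5000 bases by -0.19. The part of length, library chemistry or tissue make-up in these deviations was not tested. The labels name 2 library kits without saying which library was made with which.

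**Figure D2:**
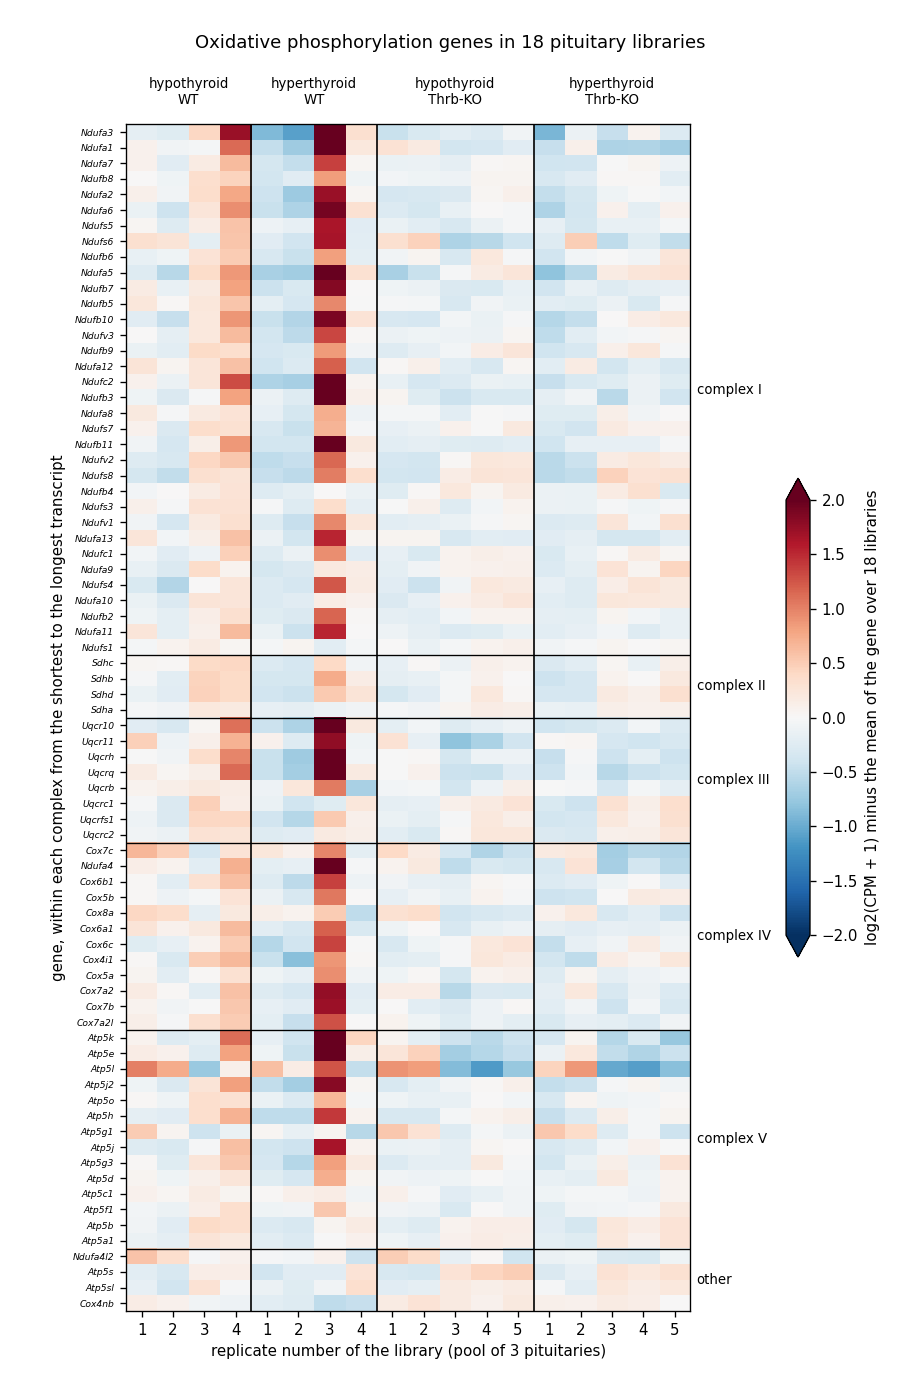
Deviation of the member genes (rows, grouped by complex, 1 of the 77 not shown) from its mean in each of the 18 libraries (columns, by group), on the log2(CPM + 1) scale, with colours held at the limits beyond 2 in either direction. Hyperthyroid wild type, replicate 3, is red for nearly all rows, and long transcripts such as Ndufs1, Sdha and Uqcrc1 are the exceptions.

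The comparison of hyperthyroid with hypothyroid wild-type pituitaries asked which member genes respond to T3. A gene counted as past the test at an adjusted p under 0.05 (limma on log2(CPM + 1), Benjamini-Hochberg over 14158 genes). No member was higher with T3 past this test and 2 were lower, Cox4nb among them. Over all genes tested, 20.2% were past it, 12.9% lower and 7.27% higher. Under scaling by TMM factors the split over all genes was 10.0% lower and 11.7% higher, and Cox4nb alone among the members was past the test. At an unadjusted p under 0.05 there were 3 members, against 29.5% of all genes, and no member reached 1.5-fold, against 10.3% of all genes. In this tissue fewer cells of a type and less RNA per cell cannot be told apart.

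Cox4nb, the gene of the endoplasmic reticulum complex and thus no part of cytochrome c oxidase, stood at 56.2, 54.02, 48.1 and 47.3 CPM without T3 and at 43.9, 42.5, 35.6 and 36.5 CPM with it. Every hypothyroid library was above every hyperthyroid one. The log2 change was -0.37 (SE 0.08) with an adjusted p of 0.002809 by limma, and it was past the test in 18 of 18 fits that left out 1 library. It was not past the test when only both wild-type groups were fitted. Cox4nb, at chr8:123177814-123192012, is the head-to-head neighbour of Cox4i1, a true subunit at chr8:123192190-123198109. Cox4i1 itself stood at 40.2, 31.7, 55.7 and 62.4 CPM without T3 and at 28.8, 21.8, 74.04 and 40.4 CPM with it, a log2 change of -0.30 (SE 0.28) that was not past the test.

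By complex, the changes were small beside their errors. In complex I the median log2 change over 35 genes was -0.03, with 15 positive and 20 negative. Ndufv1, which binds NADH, changed by 0.10 (SE 0.23) and Ndufs1, the largest iron-sulfur subunit, by -0.12 (SE 0.08). The 4 complex II genes had a median of -0.17 and were all negative. Sdha stood at 174, 168, 205 and 201 CPM in hypothyroid and at 158, 155, 164 and 167 CPM in hyperthyroid libraries, without overlap, and its log2 change of -0.21 (SE 0.09) had an adjusted p of 0.1056 by limma. Groups did not overlap, with the hyperthyroid one lower, for Sdha and Cox4nb among the 77 members (12.2% of all genes), and for no member with the hyperthyroid group higher (6.07% of all genes).

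Complex III had a median of -0.07 over 8 genes. Uqcrc1, a core protein, changed by -0.21 (SE 0.19) and Uqcrfs1, the Rieske iron-sulfur protein, by -0.19 (SE 0.22). In complex IV the median was 0.03, with 7 of 12 genes positive. Cox5a, which lies on the matrix side of the complex, was at 7.31, 5.92, 7.14 and 8.95 CPM without T3 and at 6.55, 6.13, 14.2 and 6.62 CPM with it, so that 1 library carried its higher mean. Complex V had a median of -0.03. Atp5a1 stood at 329 CPM ± 49.4 (SD, n = 4) without and 297 CPM ± 34.7 (SD, n = 4) with T3, and Atp5b at 266 ± 54.2 and 230 ± 38.4 CPM. Neither was past the test. The precision was poorer for these genes than for most: the median SE of the log2 change was 0.24 over members and 0.13 over all genes.

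**Figure D3:**
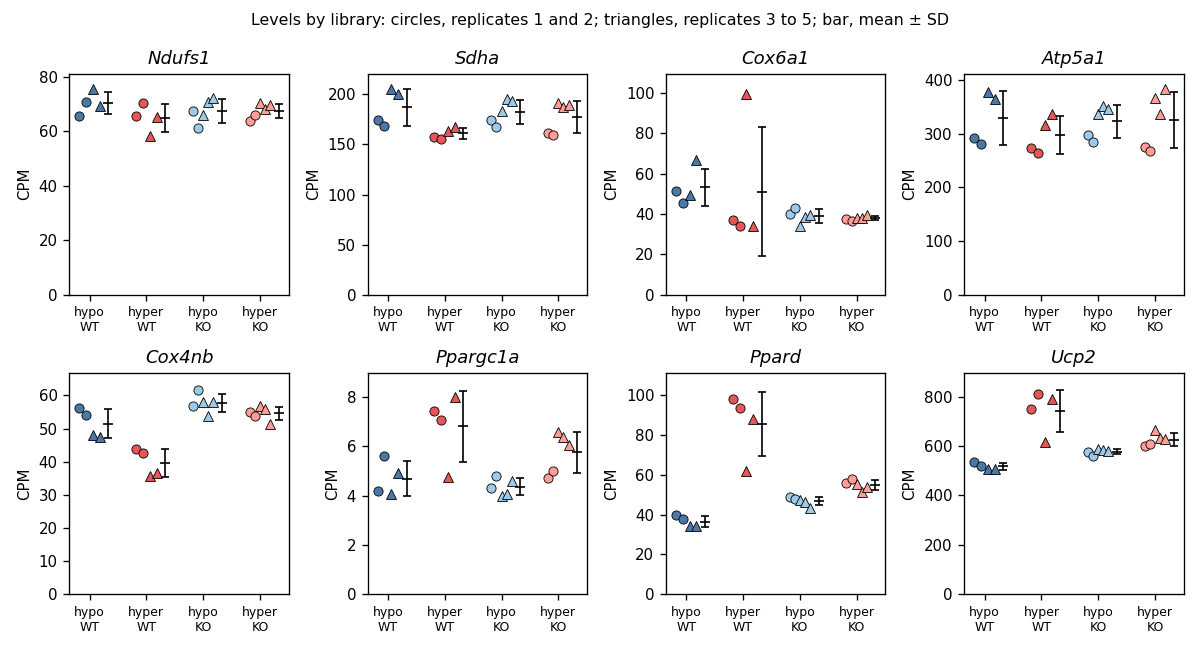
Level in CPM (vertical axes, from 0) in each library of the 4 groups for 5 member genes and for Ppargc1a, Ppard and Ucp2, with the group mean and SD as bars; circles are replicates 1 and 2 and triangles replicates 3 to 5. Cox6a1 is at 99.4 CPM in a single hyperthyroid wild-type library and at 33.99 to 37.0 CPM in the other 3, whereas Ppard and Ucp2 are above every hypothyroid wild-type library in all 4.

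Without hyperthyroid wild type, replicate 3, 16 members were lower with T3 past the test and none was higher, against 23.7% of all genes in either direction and 12.8% lower. The median member change moved from -0.04 to -0.33, and 5 members past the test reached 1.5-fold, against 11% of all genes. The 16 comprised 9 genes of complex I, 1 of complex II, 2 of complex III, 3 of complex IV and Cox4nb, and none of complex V. The largest changes past the test were those of Ndufc2 at -0.79, Uqcrh (the hinge protein of complex III) at -0.72, Uqcrq at -0.68, Ndufa2 at -0.66 and Ndufa12 at -0.63, genes chosen after their values were seen. Cox6a1, a subunit of cytochrome c oxidase, stood at 51.2, 45.4, 49.4 and 66.8 CPM in the hypothyroid and at 37.0, 34.0, 99.4 and 34.3 CPM in the hyperthyroid libraries. Its log2 change was -0.20 with all libraries and -0.57 without replicate 3, where the adjusted p was 0.0004878 by limma. Without that library the 3 remaining values lie below all 4 of the hypothyroid group.

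Over all genes the same step moved short and long transcripts apart. Without replicate 3 the median log2 change with T3 was -0.20 for genes under 600 bases, -0.12 for those of 600 to 1300 bases and 0.11 for those over 5000 bases, whereas with all libraries these medians lay between -0.05 and -0.01. The members under 600 bases changed by a median of -0.41 without it, all 27 of them negative, and the 17 members over 1300 bases by -0.18. With both outlying wild-type libraries left out, a choice made after seeing the data, 10 members were lower and none higher, against 20% of all genes in either direction, and all 10 were among the 16. When each library was centred on genes of similar transcript length, also chosen after seeing the data, 3 members were past the test, against 25.3% of all genes.

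**Figure D4:**
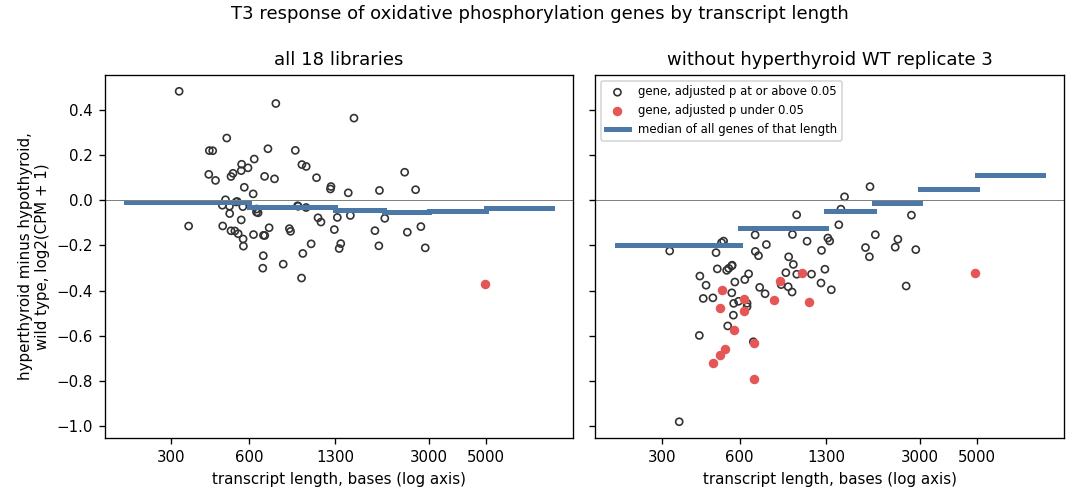
Log2 change of the member genes (1 of the 77 not shown) with T3 in wild-type pituitary (vertical axis) against transcript length in bases (horizontal axis, log scale), with all libraries and without hyperthyroid wild type, replicate 3, beside the median of all tested genes of that length. Removing 1 library lowers the short members most: the median under 600 bases goes from -0.01 to -0.41.

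The libraries fell into 2 sets by replicate number in every group, replicates 1 and 2 against replicates 3 to 5, as seen from their correlations. The labels do not say what the numbers mark. Lars2, no member and chosen after its values were seen, stood at 2571 to 3420 CPM in the libraries numbered 1 or 2. In the others it stood at 53.2 to 95.1 CPM. What lies behind this shift was not tested. Atp5a1 stood at 263 to 297 CPM in all 8 libraries numbered 1 or 2 and at 315 to 382 CPM in all 10 others. Atp5l, subunit g of the membrane part of ATP synthase and chosen after its values were seen, went the other way, at 3.49 to 7.16 CPM in the former and 0.855 to 3.34 CPM in the latter, apart from 8.72 CPM in hyperthyroid wild type, replicate 3. Within replicates 1 and 2, 33 members were lower with T3 past the test and none was higher, with a median of -0.26 and 73 of 77 negative, against 18.4% of all genes lower and 31.7% past the test in all. Within replicates 3 to 5, 2 members were past it, Cox4nb and Sdha, both lower, against 18.4% of all genes in either direction, and the median was 0.22. That set holds replicate 3. Without it, leaving a single hyperthyroid wild-type library that is assumed to vary like the others, 19 members were lower, none higher, and the median was -0.34, against 22.6% of all genes. Of the 16 members lower without replicate 3, 15 were among the 33 of replicates 1 and 2. These fits share libraries, so this is no independent count. With the replicate number as a block there were 4 members, all lower, against 2, with 29.6% of all genes past the test. Among them were Cox4nb, Sdha at -0.21 and Atp5b at -0.20.

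In the libraries labelled Thrb-KO no member was past the test with T3 by limma, edgeR or DESeq2, and none at an unadjusted p under 0.05, against 2.24% and 8.93% of all genes. The median log2 change was -0.04, with 22 members positive and 55 negative, and the median SE was 0.21. Cox6a1 was at 39.1 CPM ± 3.32 (SD, n = 5) and 37.9 CPM ± 1.07 (SD, n = 5), and Atp5a1 at 323 ± 30.4 and 326 ± 52.1 CPM. Cox4nb changed by -0.08 (SE 0.07). No member's groups were without overlap, against 5.99% of all genes.

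Whether the T3 response differed between genotypes was tested directly as the difference of both responses. No member was past this test by limma, edgeR or DESeq2, and 2 had an unadjusted p under 0.05, against 6.24% and 15.7% of all genes. Over all genes the differences past the test were 3.73% positive and 2.51% negative, and with TMM factors 3.32% and 3.76%. The difference for Cox4nb was 0.29 (SE 0.11), with an adjusted p of 0.1618 by limma, and with the library set as a block it was 0.29 with an adjusted p of 0.03312, past the test. The median difference over members was 0.01. Without hyperthyroid wild type, replicate 3, it was 0.28, and 2 members were past the test, against 8.89% of all genes. Cox6a1, at 0.53, had an adjusted p of 0.01746 by limma, so that its fall with T3 in the remaining wild-type libraries was larger than in libraries labelled Thrb-KO. The library left out held the highest Cox6a1 value of its group, so leaving it out enlarges this difference by construction.

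Comparing genotypes at the same hormone state, hypothyroid libraries labelled Thrb-KO were lower than wild-type ones for 71 of 77 members, with a median difference of -0.23 on the log2 scale against 0.02 over all genes. No single member was past the test by limma, edgeR or DESeq2, and 3 had an unadjusted p under 0.05. Over all genes the shares were 7.48% and 19%. Groups did not overlap for 4 members, all lower in libraries labelled Thrb-KO, against 7.01% of all genes. The medians by complex were -0.25 for complex I, -0.20 for II, -0.26 for III, -0.26 for IV and -0.21 for V, and every gene of complexes II, III and IV was negative. By length they were -0.32 for members under 600 bases and -0.03 for those over 1300 bases. Over all genes this difference also moved with length. Its median was -0.12 under 600 bases, -0.05 at 600 to 1300 bases and 0.10 over 5000 bases. The part of length in the member median was not tested. The replicate block gave 1 member, which was lower, against 14.9% of all genes. The median rested in part on 1 library, hypothyroid wild type, replicate 4: it ranged from -0.31 to -0.10 as single libraries were left out. Without hyperthyroid wild type, replicate 3, which does not enter this contrast but widens the shared error, 5 members were lower, against 12.7% of all genes. In replicates 3 to 5 without it, 48 members were lower and 2 higher, against 29.4% of all genes in either direction. The wild-type side there held only replicates 3 and 4, with library medians over members of 0.19 and 0.47. Those of the libraries labelled Thrb-KO were -0.18, 0.01 and 0.004. In replicates 1 and 2 the medians were 0.02 and -0.15 in wild type. The libraries labelled Thrb-KO lay between these, at -0.09 and -0.12.

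Hyperthyroid libraries labelled Thrb-KO differed from wild-type ones past the test for Cox4nb alone, of 77 members, against 12.8% of all genes. At an unadjusted p there were 2, against 24.9%. Over all genes 8.11% were higher and 4.7% lower past the test, and with TMM factors 6.17% and 7.32%. Cox4nb stood at 54.9, 53.9, 56.8, 55.8 and 51.3 CPM in libraries labelled Thrb-KO, all above the 35.6 to 43.9 CPM of the wild-type group, a separation seen in this direction for 7.79% of all genes. The log2 difference was 0.46 (SE 0.08) with an adjusted p of 0.0004907 by limma. The median over members was -0.22 with all libraries and 0.11 without hyperthyroid wild type, replicate 3, so its sign rested on that library. With all libraries the 27 members under 600 bases had a median of -0.41 and the 17 over 1300 bases one of 0.09. Within replicates 3 to 5, where that library is 1 of 2 of its group, 14 members were lower and 1 higher, against 18.3% of all genes. Within replicates 1 and 2 there were 2, Cox4nb and Atp5g1, both higher, against 17.5% of all genes.

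Of 30 tested regulators of mitochondrial biogenesis, from a list of 31, 3 rose with T3 in wild-type libraries and none fell, against 7.27% higher and 12.9% lower over all genes. Ppard, a nuclear receptor that drives fatty acid oxidation genes, stood at 39.9, 37.8, 34.0 and 34.1 CPM in the hypothyroid and at 97.9, 93.5, 62.0 and 88.0 CPM in the hyperthyroid wild-type libraries. All hyperthyroid values are higher, the lowest being that of replicate 3. The log2 change was 1.19 (SE 0.11), with an adjusted p of 1.983e-07 by limma. In libraries labelled Thrb-KO it changed by 0.22 (SE 0.10), and the difference of responses, -0.96, had an adjusted p of 0.0003272.

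Mterfd2, a member of the mitochondrial transcription terminator family, rose from 25.1 CPM ± 1.46 (SD, n = 4) to 50.8 CPM ± 3.69 (SD, n = 4) in wild type, a change of 0.99 (SE 0.11). It rose by 0.43 (SE 0.10) in libraries labelled Thrb-KO, with an adjusted p of 0.01812 by limma, and the difference of -0.56 was also past the test. Ppargc1a, the coactivator PGC-1alpha that induces respiratory genes in other tissues, was at 4.17, 5.6, 4.06 and 4.93 CPM without T3 and 7.45, 7.06, 4.74 and 8.01 CPM with it. Only replicate 3 of the hyperthyroid group falls within the hypothyroid range. The change was 0.45 (SE 0.14), with an adjusted p of 0.02463 by limma, and it stayed past the test in 13 of 18 fits without 1 library. In libraries labelled Thrb-KO it was 0.33 (SE 0.12) and not past the test, and the difference of responses, -0.12, was not either.

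The factors that act at promoters of subunit genes did not pass the test in wild type: Nrf1 changed by -0.00 (SE 0.08), Gabpa by -0.01 (SE 0.12), Esrra by -0.12 (SE 0.14) and Tfam, which packages and transcribes mitochondrial DNA, by -0.05 (SE 0.14). Esrrg, an orphan receptor active in oxidative tissues, did not pass with T3 but was higher in libraries labelled Thrb-KO, at 14.6 against 23.1 CPM in hypothyroid and 13.8 against 24.1 CPM in hyperthyroid groups. Those differences were 0.65 and 0.79 on the log2 scale, with adjusted p values of 0.0168 and 0.002343 by limma.

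Of 31 assembly factors for the complexes none was past the test in any of the 5 comparisons by limma. Of 19 tested genes for mobile and ADP or phosphate carriers, 2 rose and 1 fell with T3 in wild type, against the same 7.27% and 12.9% of all genes. Coq10b and Coq10a, binding proteins for ubiquinone, changed by 1.103 (SE 0.22) and 0.63 (SE 0.11), and Ckmt1, the mitochondrial creatine kinase, by -0.69 (SE 0.21). Coq10a also rose in libraries labelled Thrb-KO, by 0.43 (SE 0.10). Cytochrome c itself, Cycs, was listed at 0.308 to 1.12 CPM, a gene with many pseudogene copies whose level here is uncertain. Among uncoupling proteins, Ucp1 and Ucp3 were at or below 0.376 CPM. Ucp2, which carries metabolites across the inner membrane, stood at 536, 520, 507 and 507 CPM in hypothyroid and at 748, 811, 618 and 790 CPM in hyperthyroid wild-type libraries. The change was 0.51 (SE 0.08), with an adjusted p of 0.0001273 by limma, and it was 0.12 (SE 0.07) in libraries labelled Thrb-KO, a difference of -0.39 with an adjusted p of 0.03743.

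The other cell types of the gland were followed by marker lists. The summed thyrotroph markers stood at 10036 to 18861 CPM in hypothyroid and 1360 to 2210 CPM in hyperthyroid wild-type libraries, with 4 of 5 past the test. The somatotroph sum stood at 48532 to 66488 and 87608 to 159299 CPM, and the lactotroph sum at 6073 to 9572 and 14791 to 53367 CPM. The highest value of both was in hyperthyroid replicate 3. The corticotroph and melanotroph sum was 9217 CPM in that library against 3687 to 5084 CPM in the others of its group, and 8395 CPM in hypothyroid wild type, replicate 4, against 4103 to 5404 CPM in the others. Brown and white fat markers summed to 35.8 CPM in hyperthyroid replicate 3 and to 17.8 to 18.6 CPM in the other 3. Other sums were lowest of the group in that library. Endothelial markers stood at 146 CPM there against 180 to 267 CPM, and those of stroma and pericytes at 286 against 398 to 524 CPM. Erythrocyte markers summed to 53.1 to 98.4 CPM in hypothyroid and 120 to 136 CPM in hyperthyroid wild-type libraries. Immune markers were lower in hypothyroid libraries labelled Thrb-KO, at 54.7 to 66.1 CPM, than in wild-type ones at 95.4 to 113 CPM, with 4 of 6 past the test. Muscle markers, whose cells are rich in these complexes, summed to 6.71 to 7.96 and 23.7 to 53.97 CPM in wild-type libraries without and with T3. A single gene of that list, Myh7, was expressed above the threshold and rose. The part of cell make-up in member levels was not tested.

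TRβ binding near the members was read from peaks of tagged receptor (HAB;BirA mice, with BirA mice as control) in untreated pituitary and cerebral cortex. By the paper's account the HAB;BirA mice were of mixed strain background. Counting 20 kb to either side of a gene, 33 of 77 members had a pituitary peak, or 42.9%, against 40.3% of 13849 tested genes placed on mm9. Peaks of at least 20 reads lay there for 12 members, or 15.6%, against 20.5% of the genes. Peaks covered the transcription start of 6 members, or 7.79%, against 4.74%: Ndufa1, with 25 HAB;BirA reads against 1 control read, Atp5g3 with 19 against 4, Uqcrb with 17 against 2, Cox7a2 with 15 against 1, and Ndufs8 and Atp5f1 with 14 against 0 each. In cortex 24 members, or 31.2%, had a peak within 20 kb, against 34% of genes, and 9 starts, or 11.7%, were covered, against 8.72%. T3-regulated ATAC peaks mark a change of chromatin opening, in a list that gives no direction. They came from GFP-tagged nuclei of Thrb2-positive pituitary cells (Rosa26Sun1-GFP; Thrb2-Cre mice, C57BL/6J), with 4 samples given MMI and 4 given T3 as well as MMI, and so from a subset of the cells in the RNA libraries. The T3-regulated ATAC peaks lay within 20 kb of 3 members, or 3.9%, against 7.74% of genes.

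**Figure D5:**
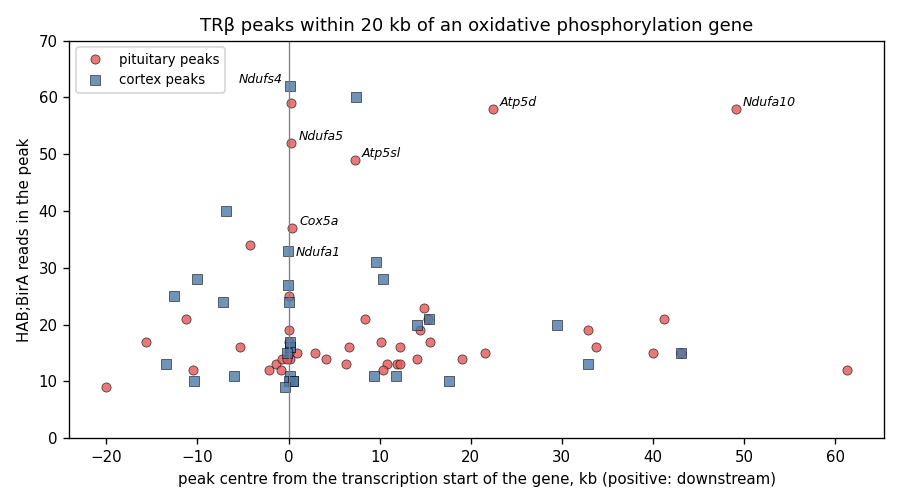
Reads in HAB;BirA samples (vertical axis) for each TRβ peak within 20 kb of a member gene against the distance of the peak centre from the transcription start in kb (horizontal axis, positive downstream), for pituitary (circles) and cortex (squares). The strongest pituitary peaks are those of Ndufs4 (59 reads), Ndufa10 and Atp5d (58 each), Ndufa5 (52) and Atp5sl (49).

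The strongest pituitary peak at a member's start was that in the first exon of Ndufs4, an accessory subunit needed for complex I activity, with 59 HAB;BirA reads against 4 control reads at chr13:115177851-115178300. A cortex peak with 62 reads overlapped it. Ndufs4 RNA changed by 0.36 (SE 0.27) with T3 in wild type and was not past the test. These genes and Atp5d and Ndufa10 were chosen after their peaks were seen. Ndufa5 had a peak of 52 reads against 2 at chr6:24477501-24477950, and Cox5a one of 37 against 4 at chr9:57369201-57369600. Cox4nb, past the test with T3 and between genotypes, had a peak in an exon at chr8:123181551-123181750, with 12 reads against 0. Further peaks within 20 kb of Cox4nb held 16 and 17 reads against 0. All were below the median of 18 reads over all pituitary peaks. Their part in its RNA was not tested.

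TRβ is known to bind a direct repeat of AGGTCA spaced by 4 bases. On either strand, and with at most 2 mismatches among the 12 fixed letters, it was found in 11 of 45 pituitary peaks near members, or 24.4%, against 20.9% of all 8051 pituitary peaks, and with at most 1 mismatch in 4, or 8.89%, against 3.94%. A match is a description of the letters and not a test of binding. The windows below, of 150 bases each and read from mm9, show the best match in capitals for 3 peaks with 1 mismatch and for the peaks at the starts of Ndufs4 and Cox5a, where it has 3. The Atp5d peak lies 14988 bases downstream of the gene, with peaks at another gene, Midn, in between. The Ndufa4l2 peak lies 4243 bases downstream of the gene, within Shmt2. Substitutions are counted from the 5′ end of the repeat. They are A11G for Atp5d, A6C for Ndufa10, T14G for Ndufa4l2, A1G, T14A and A16G for Ndufs4, and A1G, T14G and C15A for Cox5a.
Atp5d, 58 reads against 4, chr10:79623675-79623824, plus strand: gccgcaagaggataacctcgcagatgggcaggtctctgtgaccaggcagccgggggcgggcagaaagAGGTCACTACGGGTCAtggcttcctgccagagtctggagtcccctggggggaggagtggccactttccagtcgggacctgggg
Ndufa10, 21 reads against 3, chr1:94329081-94329230, plus strand: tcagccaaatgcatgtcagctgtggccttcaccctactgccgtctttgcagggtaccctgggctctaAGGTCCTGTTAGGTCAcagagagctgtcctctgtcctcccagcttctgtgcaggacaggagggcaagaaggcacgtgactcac
Ndufa4l2, 16 reads against 3, chr10:126958558-126958707, minus strand: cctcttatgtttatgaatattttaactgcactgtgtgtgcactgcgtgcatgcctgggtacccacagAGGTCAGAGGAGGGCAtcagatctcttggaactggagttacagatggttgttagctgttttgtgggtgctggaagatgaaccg
Ndufs4, 59 reads against 4, chr13:115177979-115178128, plus strand: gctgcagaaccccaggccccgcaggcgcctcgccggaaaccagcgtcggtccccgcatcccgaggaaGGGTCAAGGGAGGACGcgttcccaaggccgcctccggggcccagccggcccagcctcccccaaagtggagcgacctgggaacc
Cox5a, 37 reads against 4, chr9:57369447-57369596, minus strand: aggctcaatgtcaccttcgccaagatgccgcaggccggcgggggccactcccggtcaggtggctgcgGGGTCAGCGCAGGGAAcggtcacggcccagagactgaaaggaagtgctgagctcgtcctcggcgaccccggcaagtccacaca

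The Ndufa10 peak lies downstream of the gene, and a T3-regulated ATAC peak at chr1:94328304-94329139 overlaps its first bases, with no annotated coding gene at either. A larger TRβ peak, of 58 reads, lies further downstream at chr1:94321001-94321700, where 2 more T3-regulated ATAC peaks lie. Ndufa10, an accessory subunit of complex I, stood at 30.1 CPM ± 5.71 (SD, n = 4) without and 28.3 CPM ± 4.34 (SD, n = 4) with T3 in wild type. The change of -0.08 (SE 0.16) was not past the test. Of the other members near an ATAC peak, Ndufs4 holds its peak in an intron and Sdha has one 13 kb upstream.

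Promoter windows, from 250 bases before to 50 after the start, were available for 64 of 77 members from RefSeq (GRCm38.p6). The palindromic site of the respiratory factor NRF1 was in 4 of them, or 6.25%, against 2.17% of 11139 tested genes, and the YY1 core in 6, or 9.38%, against 2.21%. The ETS core CCGGAAG, bound by GABPA among others, was in 16, or 25.0%, against 18.5%. Both strands were searched, and the ETS core may overlap other motifs. GGGCGG was rarer, in 39.1% against 68.1%, TATAAA was in 7.81% against 8.86%, and the direct repeat was in none of the 64 members and none of the 11139 genes. The receptor half-site AGGTCA was in 15 members, or 23.4%, against 14.7%, and TNAAGGTCA, the site of estrogen-related receptors, which holds that half-site, in 3, or 4.69%, against 0.889%. The 250 bases before the start are shown for Cox6a1 and Atp5k, genes with an NRF1 site and a value far from the rest of the group in hyperthyroid wild type, replicate 3. That library was the highest of its group for 69 of 77 members, while the site was in 4 of 64 promoters. A link between site and value was not tested. The RefSeq windows are chr5:115348909-115349208 and chr5:108434350-108434649, both on the minus strand. Capitals mark the NRF1 site and, for Cox6a1, the ETS core on the reverse strand.
Cox6a1: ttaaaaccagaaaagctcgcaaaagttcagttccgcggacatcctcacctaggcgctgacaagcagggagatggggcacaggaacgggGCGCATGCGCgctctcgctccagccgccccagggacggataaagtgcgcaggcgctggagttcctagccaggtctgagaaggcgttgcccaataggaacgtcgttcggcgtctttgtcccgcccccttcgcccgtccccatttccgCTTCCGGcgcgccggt
Atp5k: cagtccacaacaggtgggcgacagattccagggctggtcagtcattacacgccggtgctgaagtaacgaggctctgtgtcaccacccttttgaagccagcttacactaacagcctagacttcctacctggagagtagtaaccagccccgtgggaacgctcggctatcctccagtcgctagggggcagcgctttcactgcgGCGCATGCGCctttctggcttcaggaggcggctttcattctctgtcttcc

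Atp5k, chosen after its values were seen, encodes subunit e of the membrane part of ATP synthase. It stood at 7.54, 6.27, 64.7 and 11.8 CPM in hyperthyroid and at 8.96, 7.0, 7.28 and 19.7 CPM in hypothyroid wild-type libraries, and at 4.66 to 8.93 CPM in those labelled Thrb-KO. The difference between genotypes in the hyperthyroid state was -1.04 (SE 0.46) on the log2 scale and was not past the test by limma, with an adjusted p of 0.1588. By edgeR's quasi-likelihood test on the recovered reads it was -1.96 with an adjusted p of 0.02807, and by limma in replicates 3 to 5 alone -2.15 with an adjusted p of 0.01873.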

How the data were processed

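The authors mapped single-end reads of 50 bases to RefSeq transcripts of mm9 with BBMap and deposited CPM per transcript, not divided by length. The deposited TRβ peak lists give the authors' read counts in HAB;BirA and BirA samples, pooled within genotype, the ratio of both, and a p-value and false discovery rate. The deposited list of T3-regulated ATAC peaks gives positions with an adjusted p-value and no direction of change. The submitters' processing notes also name Bowtie2, STAR, MACS2, edgeR and SICER 1.1.

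For each gene the transcript with the highest mean CPM was kept. Its length was not read from that transcript but taken as the median over all GENCODE protein-coding transcripts of the gene symbol. Genes with a mean above 1 CPM (14158 of 22835) were tested on log2(CPM + 1), a scale that understates changes of low genes, with limma 3.58.1 (trended eBayes) in 1 model of the 4 groups, adjusted by Benjamini-Hochberg over all genes. A gene was past the test at an adjusted p under 0.05. As every value was a whole multiple of 1 read (100% within 0.01), recovered counts were tested with edgeR 4.0.16 and DESeq2 1.42.0 as alternatives. The limma test was run on simulated data without library sets, outlying libraries or a trend with transcript length. That simulation cannot show how the test behaves where these are present. Peaks were assigned within 20 kb of the gene body. Genes were named if past the test and at 1.5-fold, among the 3 largest or smallest changes past the test, core subunits, tissue isoforms, or bearing a peak, and any other is said to be chosen after seeing its values. The members and lists were chosen with earlier results of these data known. Values of 1 member gene are not reported here. p-values measure the spread between libraries of a group, each a pool of 3 pituitaries, and counting intervals cover counting error only. Without a block, that spread includes the shift between both library sets as well as the outlying libraries.

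Replicate numbers recur in every group. Deviations from group means correlated at 0.139 to 0.802 in the 25 pairs of libraries that share a number across groups, all above 0.1, so a fit with the number as a block was run beside the main one. The 36 pairs of the same set (1 and 2, or 3 to 5) with other numbers correlated alike (median 0.51 for both kinds), the 60 pairs across sets at -0.769 to -0.256, and 4 of 18 libraries matched best with their own number.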

Additional observations from a re-analysis of the deposited data

Results flagged for a closer look

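Within a group, values of selected members, of some other genes and of summaries over members were checked by Dixon's test for a library standing apart. Chance gives this in about 1 in 20 sets. Some genes were listed after their values were seen and the sets share libraries, so that share is no yardstick for the count. Of 172 sets, 14 held such a library. Hyperthyroid wild type, replicate 3, accounted for 11 of them, all as the highest value: Ndufa1 at 179 CPM, Ndufa4 at 165, Atp5e at 141, Cox6a1 at 99.4, Cox7a2l at 94.7, Cox6c at 93.0, Cox7a2 at 89.7, Cox7b at 73.4, Cox6b1 at 72.1, Atp5k at 64.7 and Cox5a at 14.2 CPM. In its group the other libraries held 18.0 to 35.1 CPM of Ndufa1 and 33.99 to 37.0 CPM of Cox6a1. The same pair of short transcripts, Ndufa1 at 67.4 CPM and Atp5k at 19.7 CPM, stood apart in hypothyroid wild type, replicate 4. Ndufa1 at 32.4 CPM did so in replicate 2 of the hyperthyroid libraries labelled Thrb-KO.

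The T3 response differed between genotypes, by the direct test of the difference, for 3 genes outside the complexes. The response in libraries labelled Thrb-KO minus that in wild-type ones was -0.96 on the log2 scale for Ppard, -0.56 for Mterfd2 and -0.39 for Ucp2.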

How the results depend on the processing

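Pseudocounts, filters on low values and leaving out a library labelled Thrb-KO moved the counts of members past the test by at most 1. In wild type with T3 the count of 2 became 1 with TMM factors, centring on the median, edgeR or DESeq2, 0 with only both groups fitted or with a 1.5-fold limit, 5 with the set as a block, and 33 in replicates 1 and 2. It ranged from 1 to 16 as single libraries were left out, was 10 without both outlying libraries, and 19 in replicates 3 to 5 without hyperthyroid replicate 3. The replicate block gave 4 in wild type and 1 for hypothyroid Thrb-KO against wild type, and changed no other call. The share of all genes past the test moved between settings as well. For T3 in wild type it was 20.2% in the main fit, 31.7% in replicates 1 and 2 and 18.4% in replicates 3 to 5. A count of members in a setting is therefore not by itself a result about the members.

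In libraries labelled Thrb-KO the count with T3 was 1 in replicates 1 and 2. The difference of responses gave 2 with the set block, 1 in replicates 1 and 2, 1 without both outlying libraries, and 0 to 2 without 1 library. Hypothyroid Thrb-KO against wild type gave 1 with the set block, in replicates 3 to 5, without both outlying libraries or centred within transcript length, 3 with only both groups, 0 to 5 without 1 library, and 50 (48 lower) in replicates 3 to 5 without hyperthyroid wild-type replicate 3. The hyperthyroid comparison of genotypes gave 3 with edgeR, 8 with DESeq2, 0 at 1.5-fold, 2 in replicates 1 and 2 and 15 in replicates 3 to 5. Over all genes the share was 12.8% in the main fit, 17.5% in replicates 1 and 2 and 18.3% in replicates 3 to 5. The shares with edgeR and DESeq2 are not given here, so the counts of 3 and 8 cannot be set against them.

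Medians over members, without 1 library, ranged from -0.33 to 0.13 for T3 in wild type, -0.06 to 0.01 in libraries labelled Thrb-KO, -0.19 to 0.28 for their difference, -0.31 to -0.10 between hypothyroid genotypes and -0.35 to 0.11 between hyperthyroid ones. The last was 0.11 without both outlying libraries, and the difference of responses 0.36 in replicates 3 to 5 without hyperthyroid wild-type replicate 3. Ppargc1a ranged from 0.37 to 0.59, and Cox4nb from -0.42 to -0.32 with T3 and 0.41 to 0.51 between genotypes. Members with a pituitary TRβ peak within 20 kb numbered 33, or 42.9% against 40.3% of genes. There were 11 at 1 kb of the start, or 14.3% against 11%, and 60 at 100 kb, or 77.9% against 70%. Within 20 kb, 12 had a peak of at least 20 reads, or 15.6% against 20.5%. The causes were not tested. Totals of 21453548 to 55273749 reads leave little counting error for most members, and the spread between libraries set the precision.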
